A study of Homo sapiens with 4 samples.

Results

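The 43 genes described here encode parts of the kinetochore and the spindle checkpoint, and were taken by symbol from a count table of 23394 genes. All 43 were in the table, and all 43 had enough counts to be among the 13915 genes tested. RNA had been sequenced from SUM159, a triple-negative breast cancer cell line grown with insulin and hydrocortisone. One group, called control, received DMSO and has 2 libraries. The other, called knockdown, received doxycycline, which induced a small interfering RNA against SHARP (the gene SPEN), and also has 2 libraries. Doxycycline was given to the knockdown cells only, so the drug and the knockdown cannot be told apart. The sources used here do not say whether control cells carried the inducible construct, or whether the libraries came from separate cultures, so the p-values rest on the spread between libraries that may be technical repeats.

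The kinetochore is the protein structure on which spindle microtubules pull each chromosome. A centromere-specific histone, CENP-A, marks its site, a constitutive network of CENP proteins sits on that chromatin, and the KNL1, MIS12 and NDC80 complexes reach out from there to the microtubule. While a kinetochore is unattached, the checkpoint proteins of the MAD and BUB families hold back CDC20, the activator of the anaphase-promoting complex. Many of these genes are transcribed mainly in G2 and mitosis, so their level in a culture also follows how many cells are dividing. In RNA from a whole culture, fewer cells of a stage and less RNA per cell cannot be told apart.

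Libraries held 15641296 to 17197715 counts, with 17237 to 17308 genes detected in each. SPEN was at 3129 and 3208 counts in controls and 1660 and 1666 under knockdown, a log2 fold change of -0.78 (SE 0.035). Levels are given in CPM, counts per 1000000 of the library total scaled with TMM factors, which centre most genes. Of markers of the labelled line, VIM averaged 3254 CPM in controls, CD44 384, EGFR 257 and SPARC 189 CPM. The epithelial keratins KRT18 and KRT8 averaged 184 and 121 CPM in controls. The epithelial cadherin CDH1 had no count in any library, and EPCAM averaged 0.0573 CPM in the controls. VIM (log2 fold change 0.62), SPARC (0.53), EGFR (0.48), KRT8 (0.29) and CD44 (0.15) were called higher, and KRT18 was not called. Leukocyte markers summed to 35.5 to 39.8 CPM in controls and 45.9 to 46.0 CPM under knockdown, nearly all of it CD68 and LYZ, and PTPRC lay at 0.409 CPM in the controls. Endothelial markers summed to 0.458 to 0.894 CPM over the 4 libraries. Fibroblast markers summed to 138 to 140 CPM in controls and 153 to 159 under knockdown. Among them COL1A1, the most abundant, fell by 0.26 on the log2 scale, DCN (2.21) and PDGFRA (1.35) rose, and LUM had 1 count in 1 library. The part of these marker sums in the results was not tested. The cell cycle inhibitors CDKN1A and CDKN1B were at 42.8 and 25.7 CPM in controls and 42.8 and 25.5 CPM under knockdown, and neither passed the test.

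Because many mitotic genes are known to be read from promoters with a cell cycle homology region (CHR, letters TTTGAA or TTCGAA) and boxes for the factor NF-Y (CCAAT), the start regions of the members were read first. RefSeq (GRCh38.p14) start windows, 250 bases before to 50 bases after a start, were matched for 34 of the 43 members (40 windows), leaving CENPH, CENPL, CENPM, CASC5, KNTC1, BUB3, TTK, AURKA and BIRC5 unmatched. A CHR match on either strand was in the windows of 18 of the 34 members (52.9%), against 19.5% of all 27305 genes with such a window. CCAAT was in the windows of 22 members (64.7%), against 39.7% of all genes. A total of 12 members had both and 6 had neither. In 10 members a CHR match began within the last 40 bases before the start. The 100 bases before the start are shown for 5 members with a CHR match there, then for 3 of the members that fell far without one and for ZWILCH, which rose and whose single match lies after its start. Capitals mark CHR and CCAAT matches in either orientation, TTCAAA and ATTGG being the reverse forms.
CENPA: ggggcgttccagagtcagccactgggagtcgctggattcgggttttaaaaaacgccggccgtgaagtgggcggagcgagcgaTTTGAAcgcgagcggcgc
INCENP: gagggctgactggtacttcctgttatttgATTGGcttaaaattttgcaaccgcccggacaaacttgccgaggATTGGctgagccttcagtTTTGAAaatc
ZWINT: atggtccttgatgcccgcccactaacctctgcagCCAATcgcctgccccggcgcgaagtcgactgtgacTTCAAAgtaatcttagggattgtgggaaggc
PLK1: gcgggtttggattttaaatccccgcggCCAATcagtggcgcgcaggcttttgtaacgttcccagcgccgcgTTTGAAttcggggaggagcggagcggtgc
CDC20: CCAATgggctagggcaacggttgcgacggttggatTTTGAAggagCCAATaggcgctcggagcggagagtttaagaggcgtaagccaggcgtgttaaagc
SKA2: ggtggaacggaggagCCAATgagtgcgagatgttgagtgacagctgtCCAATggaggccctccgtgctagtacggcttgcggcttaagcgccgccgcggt
CENPE: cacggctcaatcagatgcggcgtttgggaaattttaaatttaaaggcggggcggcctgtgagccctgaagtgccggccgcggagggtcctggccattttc
DSN1: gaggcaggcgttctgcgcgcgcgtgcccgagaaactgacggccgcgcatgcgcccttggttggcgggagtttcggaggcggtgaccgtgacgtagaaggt
ZWILCH: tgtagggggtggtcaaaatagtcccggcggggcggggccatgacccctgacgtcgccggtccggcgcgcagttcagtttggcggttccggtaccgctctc
These stretches lie, in GRCh38.p14, for CENPA at chr2:26785956-26786055 (plus strand), INCENP at chr11:62123911-62124010 (plus strand), ZWINT at chr10:56361260-56361359 (minus strand), PLK1 at chr16:23678789-23678888 (plus strand) and CDC20 at chr1:43358881-43358980 (plus strand). The other 4 are SKA2 at chr17:59155187-59155286 (minus strand), CENPE at chr4:103198344-103198443 (minus strand), DSN1 at chr20:36773764-36773863 (minus strand) and ZWILCH at chr15:66505226-66505325 (plus strand). The counts were made on GRCh37, so these positions serve the sequences alone.

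The changes of members with and without these letters were set side by side, and no difference between them was tested. The median log2 fold change was -0.21 over the 18 members with a CHR match and -0.29 over the 16 without, and 11 of the 18 and 9 of the 16 were called lower. With and without CCAAT the medians were -0.27 and -0.22, with 13 of 22 and 7 of 12 called lower. The TTCGAA form was in 3 members, all called lower, with a median of -0.39. Beside these counts, 27 of all 43 members and 24.9% of all tested genes were called lower. NUF2, the member that fell most, had its CHR letters 17 bases after the start and no CCAAT, and CENPE and DSN1 had neither in their windows. SKA2 had 5 CCAAT matches and no CHR. SKA3, which rose, had a CHR match across its start. A match is a description of letters and not evidence of a bound factor, and the stretch of ZWINT is that of 1 of its 2 listed starts.

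**Figure D1:**
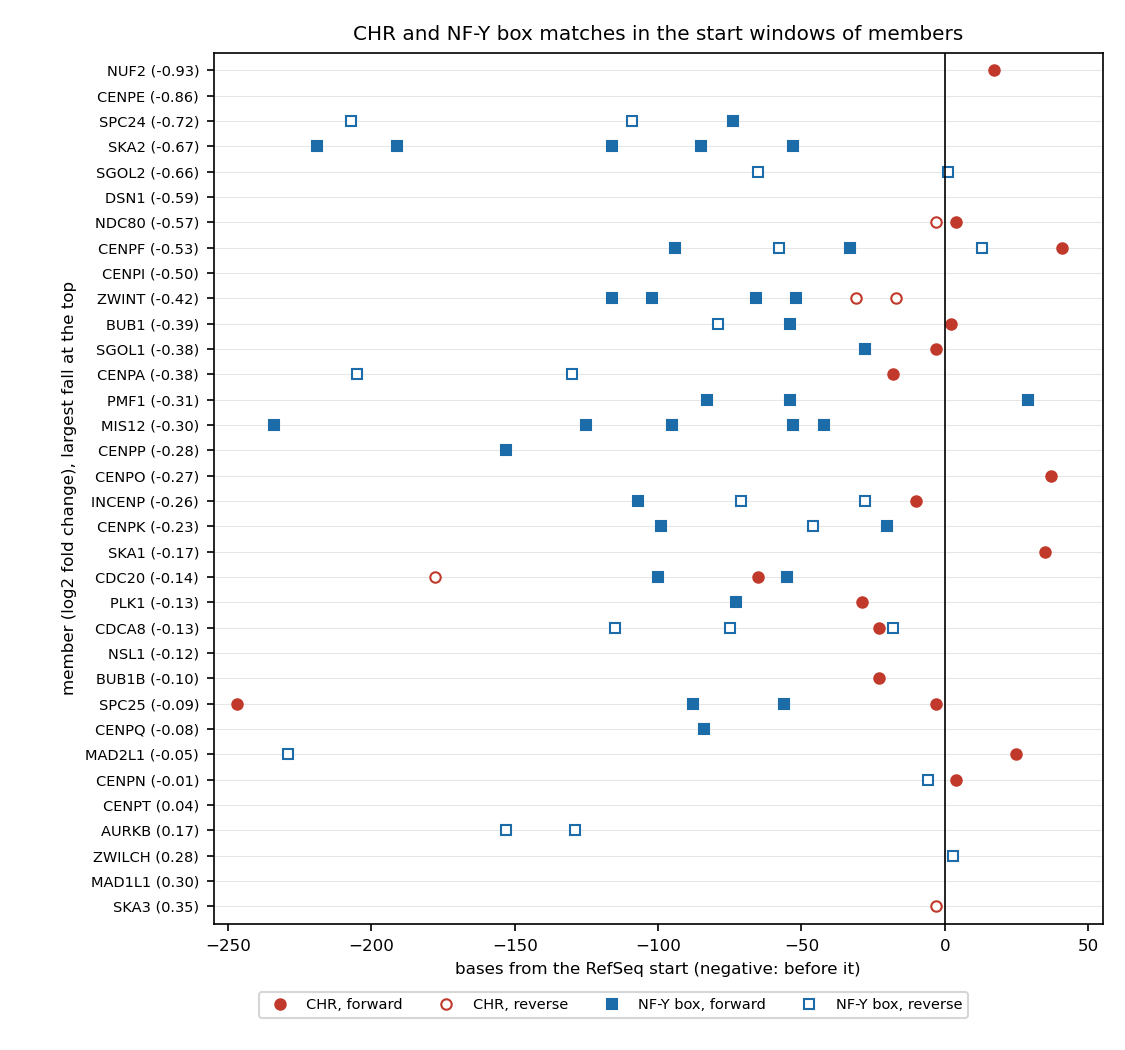
Positions of CHR (red circles) and NF-Y box (blue squares) matches relative to the RefSeq start (x axis, bases) in 34 members, ordered by log2 fold change from the largest fall at the top. Filled marks are on the gene's strand and open marks on the other; matches are spread over members that fell, did not pass the test and rose.

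The members as a group took less of the RNA under knockdown. They summed to 3134 and 3133 CPM in controls and 2565 and 2535 CPM under knockdown, 0.814 times the control level. As a share of all counts this was 0.319% and 0.318% against 0.252% and 0.250%. In edgeR's quasi-likelihood test, with p adjusted over all 13915 genes and called at 0.05, 27 of the 43 members were lower and 3 were higher, and 13 were not called. Over all tested genes 24.9% were called lower and 25.1% higher. The median log2 fold change, knockdown over control, was -0.27 over the members and 0.0012 over all tested genes. Both knockdown libraries lay below both controls in 33 members, against 37.2% of all tested genes, and above both in 6, against 37.0%. The members were listed with earlier results of these data known, so these counts describe the list and are no independent evidence of its direction.

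Most of the changes were modest in size. No member reached a 2-fold change. Against a fold of 1.2, edgeR's glmTreat called 17 members lower and 0 higher, where it called 9.38% of all tested genes lower and 8.74% higher. Between replicates, the members differed by a median of 0.066 log2 units in the control pair and 0.056 in the knockdown pair. Standard errors of the log2 fold change ran from 0.024 for the abundant CENPF to 0.16 for the scarce CENPP.

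**Figure D2:**
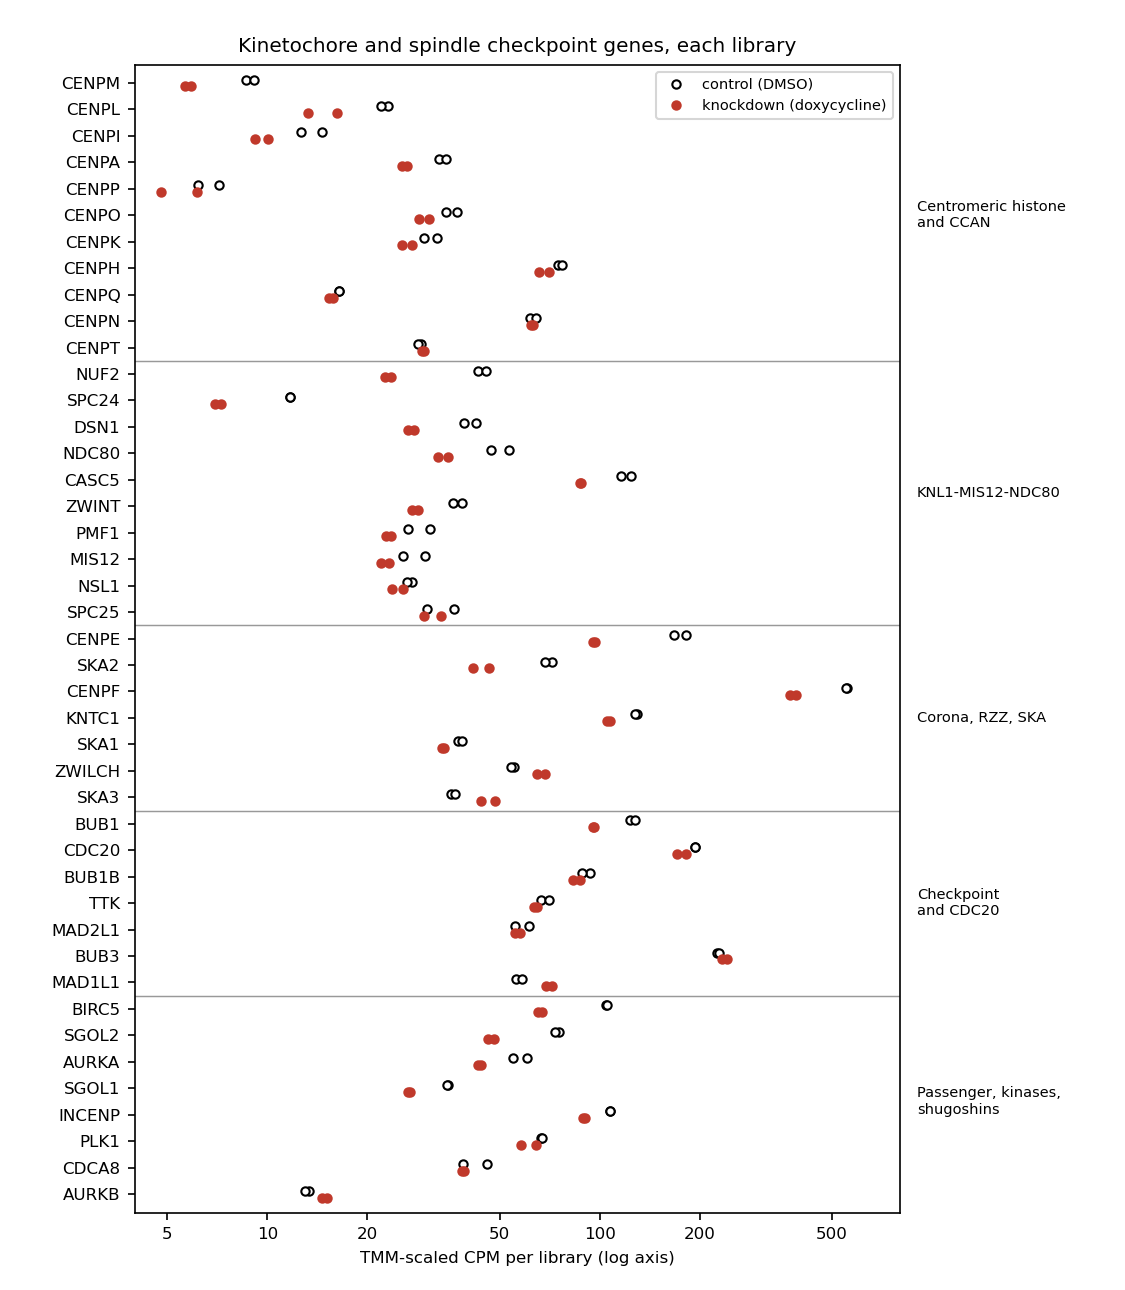
CPM of each member in each library on a log axis, open circles for the 2 control and red circles for the 2 knockdown libraries, grouped by role. In CENPE, NUF2, BIRC5 and SGOL2 the knockdown pair sits well to the left of the control pair, and in SKA3, ZWILCH and MAD1L1 it sits to the right.

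**Figure D3:**
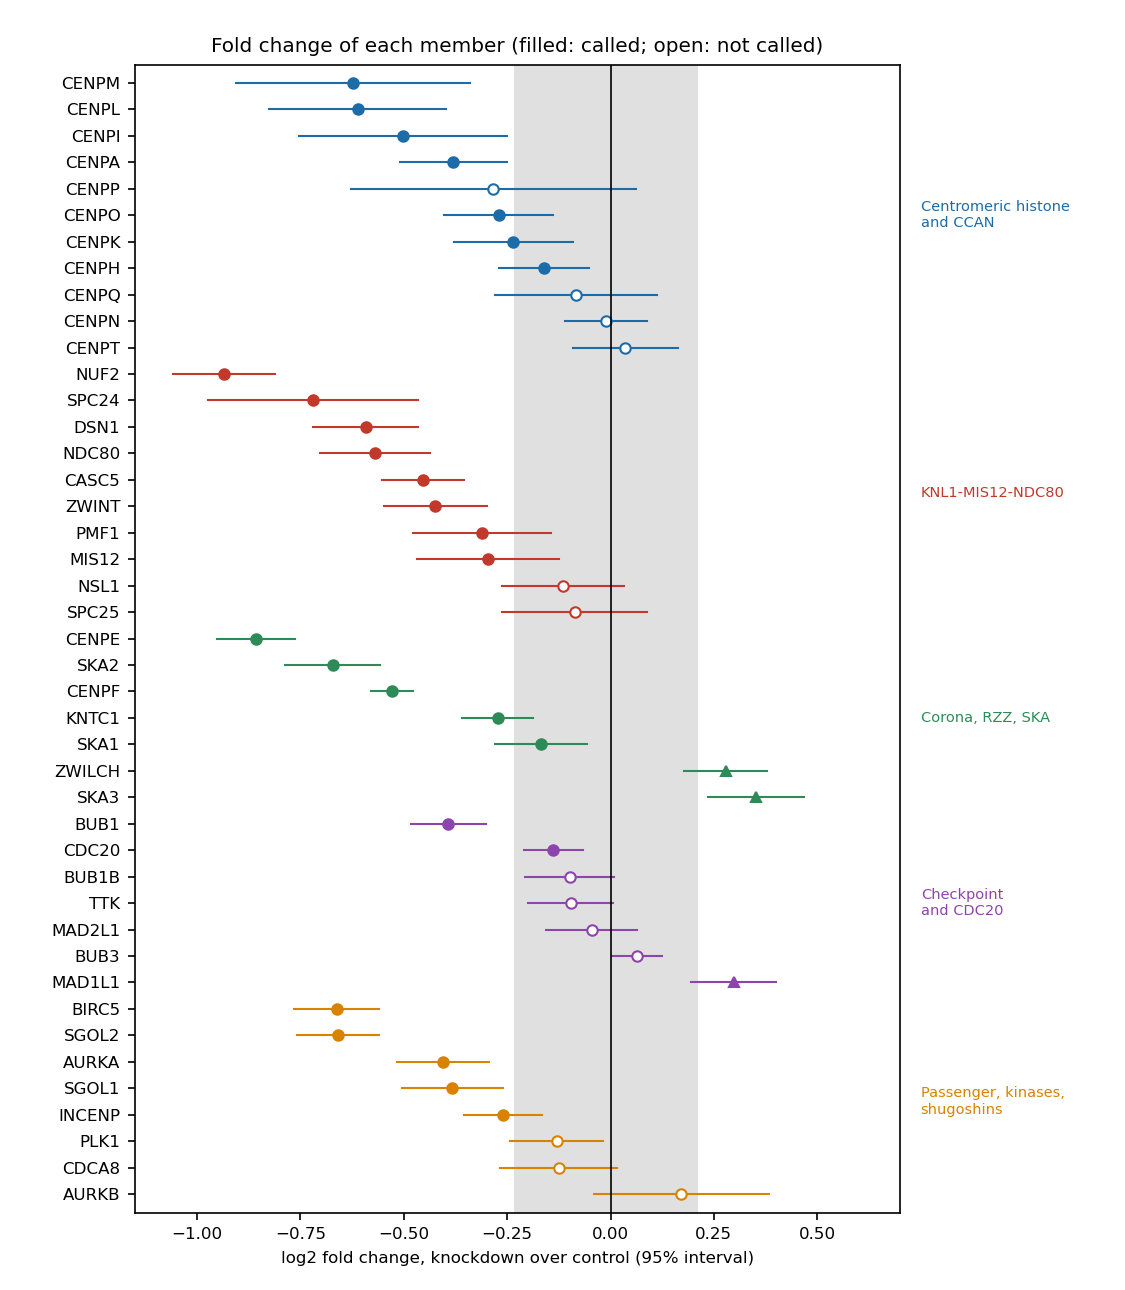
Log2 fold change of each member, knockdown over control, with its 95% interval (lines), filled where called and open where not, triangles for called rises. The grey band spans the middle 50 percent of all tested genes, and NUF2 (-0.93) and CENPE (-0.86) lie farthest to its left, with the 3 called rises to its right.

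Summed over genes, each role had less RNA under knockdown, to different degrees. The outer kinetochore genes summed to 414 and 426 CPM in controls and 306 and 310 under knockdown (0.733 times), and the corona, RZZ and SKA genes to 1064 and 1044 against 790 and 761 (0.736 times). The passenger complex, mitotic kinases and shugoshins went from 503 and 499 to 384 and 391 CPM (0.774 times). The centromeric histone and its network were at 338 and 335 against 297 and 289 CPM (0.871 times). The checkpoint genes with CDC20 were at 815 and 829 against 788 and 784 CPM (0.956 times). Sums weigh abundant genes most, CENPF above all in the corona, RZZ and SKA group. The median log2 fold change was -0.44 for the outer kinetochore and -0.32 for the passenger complex, kinases and shugoshins. It was -0.27 both for the corona, RZZ and SKA genes and for the centromere genes, and -0.097 for the checkpoint genes. Whether these ratios or medians differ between roles was not tested.

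At the centromere, 7 of 11 genes fell, against 24.9% of all tested genes, and 4 did not pass the test. CENPA, the histone variant that marks the centromere, was at 32.8 and 34.4 CPM in controls and 26.3 and 25.4 under knockdown (log2 fold change -0.38, SE 0.060, edgeR adjusted p = 9.46e-05). CENPL, which with CENPN helps to read CENP-A chromatin, went from 23.0 and 22.0 to 13.3 and 16.2 CPM (-0.61, SE 0.10, adjusted p = 1.21e-04). Its partner CENPN was at 61.8 and 64.3 in controls and 62.2 and 62.9 CPM under knockdown, overlapping groups, and its 95% interval of -0.11 to 0.087 on the log2 scale holds only small changes. CENPL was thus at 0.654 times its control level and CENPN at 0.992 times, and the difference between them was not tested.

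The CENP-H, CENP-I, CENP-K and CENP-M proteins form a subcomplex. All of its 4 genes were called lower, against 24.9% of all tested genes. CENPM was at 8.64 and 9.11 CPM in controls and 5.89 and 5.64 under knockdown (-0.62, SE 0.13, edgeR adjusted p = 0.00114). CENPI, at 14.7 and 12.6 against 10.03 and 9.21 CPM, fell by 0.50 on the log2 scale. The log2 fold changes of CENPK (-0.23) and CENPH (-0.16) were smaller in size. Some of these calls depended on the test, the filter or single libraries. DESeq2 gave an adjusted p of 0.102 for CENPH and 0.131 for CENPK, and edgeR without a low-count filter gave 0.0600 and 0.0506. The edgeR adjusted p was 0.0576 for CENPI, 0.148 for CENPK and 0.0554 for CENPH without control replicate 1. It was 0.156 for CENPH without control replicate 2, and 0.0582 for CENPK and 0.177 for CENPH without knockdown replicate 2.

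Of the CENP-O, CENP-P and CENP-Q genes, CENPO fell from 37.3 and 34.4 to 30.7 and 28.7 CPM (-0.27, SE 0.061, edgeR adjusted p = 0.00191, 0.0715 without control replicate 1 and 0.0531 by DESeq2). CENPP, the least abundant member, had 120 and 108 counts against 95 and 74 (log2 fold change -0.28, adjusted p = 0.161, and 0.0418 without knockdown replicate 1). CENPQ was at 16.4 CPM in both controls and 15.7 and 15.3 under knockdown (-0.084, adjusted p = 0.478). CENPT, which reaches from the centromere to the NDC80 complex, was at 28.9 and 28.3 CPM in controls and 29.2 and 29.5 under knockdown (0.036, 95% interval -0.091 to 0.16). With scaling by library size its log2 fold change was -0.0099.

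In the outer kinetochore 8 of 10 genes fell, against 24.9% of all tested genes, none rose and 2 did not pass the test. The NDC80 complex, the main grip on microtubules, is built of NDC80 and NUF2 at the microtubule end and SPC24 and SPC25 at the inner end. NUF2 showed the largest fall of all 43 members, from 42.95 and 45.4 CPM to 23.6 and 22.6 (log2 fold change -0.93, SE 0.058, edgeR adjusted p = 5.02e-09). NDC80 went from 46.9 and 53.2 to 32.5 and 34.95 CPM (-0.57, SE 0.062, adjusted p = 2.44e-06). SPC24 went from 11.7 CPM in both controls to 7.25 and 6.94 (-0.72, SE 0.12, adjusted p = 1.39e-04). SPC25 alone of the complex was not called, at 30.1 and 36.5 CPM in controls and 29.6 and 33.2 under knockdown (-0.087, adjusted p = 0.402). Without control replicate 2, the higher of the controls, its log2 fold change was 0.056.

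The subunits of the NDC80 complex act in equal numbers, and the levels of their mRNAs can be compared per length. Per kilobase of the longest coding transcript (GENCODE 29), NDC80, NUF2 and SPC25 were at 23.0, 22.4 and 24.6 CPM in the controls, close to each other, and SPC24 was at 5.05. In the knockdown the levels per kilobase were 15.5, 11.7 and 23.2, and 3.06 for SPC24. The transcripts these cells use may be shorter than the longest annotated one, which would change levels between genes but not fold changes.

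In the MIS12 and KNL1 complexes 5 of 6 genes fell, against 24.9% of all tested genes. DSN1, a subunit of the MIS12 complex, went from 39.0 and 42.5 CPM to 26.5 and 27.6 (-0.59, SE 0.060, edgeR adjusted p = 1.02e-06). MIS12 itself (-0.30) and PMF1 (-0.31) also fell. NSL1, at 27.2 and 26.2 CPM in controls and 25.6 and 23.8 under knockdown, did not pass the test (-0.12, adjusted p = 0.182). The edgeR adjusted p of MIS12 was 0.118 without control replicate 2, and that of PMF1 was 0.0933 without control replicate 1. DESeq2 called neither (adjusted p = 0.0723 and 0.0506), and edgeR without a low-count filter gave 0.0520 for MIS12.

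PMF1 shares its locus with the read-through gene PMF1-BGLAP, and its deposited values were fractional, so its count is uncertain. PMF1-BGLAP had 53 and 70 counts in controls and 9 and 40 under knockdown. The downstream gene BGLAP had 0 in both controls and 12 and 10 under knockdown, and was called higher on these few counts. PMF1-BGLAP was called lower, but its log2 fold change of -1.17 became -0.47 (adjusted p = 0.178) without knockdown replicate 1, and the call was also lost without either control, without a low-count filter and in DESeq2 (adjusted p = 0.386).

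CASC5, the older symbol of KNL1, is the scaffold that recruits BUB1 and BUB3. It went from 124 and 116 to 87.2 and 87.9 CPM (-0.45, SE 0.047, edgeR adjusted p = 1.24e-06). Its partner ZWINT went from 36.2 and 38.4 to 27.2 and 28.5 CPM (-0.42, SE 0.058). The 2 genes of this complex were at 0.730 and 0.746 times the control level.

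Of the 7 genes of the corona, RZZ and SKA complexes 5 fell and 2 rose, against 24.9% and 25.1% of all tested genes. In none did the groups overlap. Non-overlap was also common over all tested genes, with 37.2% below both controls and 37.0% above both. CENPF, a large protein of the outer kinetochore and nuclear envelope and the most abundant member, went from 552 and 551 CPM to 390 and 374 (-0.53, SE 0.024, edgeR adjusted p = 1.39e-10). CENPE, the kinesin that carries chromosomes to the spindle equator, went from 182 and 167 to 97.0 and 95.6 CPM (-0.86, SE 0.044, adjusted p = 6.55e-10). KNTC1, the ROD subunit of the RZZ complex that brings MAD1 to kinetochores, fell from 129 and 128 to 105 and 107 CPM (-0.27, SE 0.040). Its complex partner ZWILCH rose, from 55.4 and 54.2 to 68.3 and 64.6 CPM (0.28, SE 0.047, adjusted p = 1.66e-04).

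The SKA complex, which helps kinetochores hold depolymerising microtubules, was also divided. SKA2 went from 71.9 and 68.3 CPM to 46.5 and 41.4 (-0.67, SE 0.054, edgeR adjusted p = 9.36e-08). SKA3 went the other way, from 35.6 and 36.7 to 48.4 and 43.9 CPM (0.35, SE 0.055, adjusted p = 7.76e-05), the largest rise among the members. SKA1 was at 37.3 and 38.6 against 33.5 and 34.1 CPM (-0.17, SE 0.052, adjusted p = 0.0139). The SKA1 call was lost in DESeq2 (adjusted p = 0.239), and in edgeR without control replicate 1 (adjusted p = 0.0511), without control replicate 2 (0.0990) and without knockdown replicate 1 (0.0727). Per kilobase SKA1, SKA2 and SKA3 were at 13.1, 25.1 and 12.4 CPM in controls and at 11.6, 15.7 and 15.8 under knockdown. PRR11, which starts beside SKA2 on the opposite strand in RefSeq, had 4111 and 4256 counts in controls and 2521 and 2463 under knockdown (-0.60, SE 0.029).

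Ratios of counts between genes need no scaling between libraries, and 8 pairs of members were computed, chosen after their values were seen. CENPT and CENPL were paired as parts of the wider constitutive network, and the other pairs as partners in the same complex. SKA3 counts were 0.495 and 0.537 times those of SKA2 in controls and 1.04 and 1.06 times under knockdown. SPC25 was at 0.702 and 0.803 times NUF2 in controls and at 1.25 and 1.47 times under knockdown. ZWILCH was at 0.428 and 0.424 times KNTC1 against 0.648 and 0.602 times. AURKB was at 0.127 and 0.124 times BIRC5 against 0.230 and 0.217 times. The mean ratio under knockdown was 1.58 times that in controls for CENPT to CENPL, 1.39 times for NSL1 to DSN1, 1.37 times for BUB3 to BUB1 and 1.27 times for MAD1L1 to MAD2L1. In all 8 pairs both knockdown libraries lay above both controls, and the mean ratio was 1.27 to 2.03 times as high, a direction set by how the pairs were chosen.

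**Figure D4:**
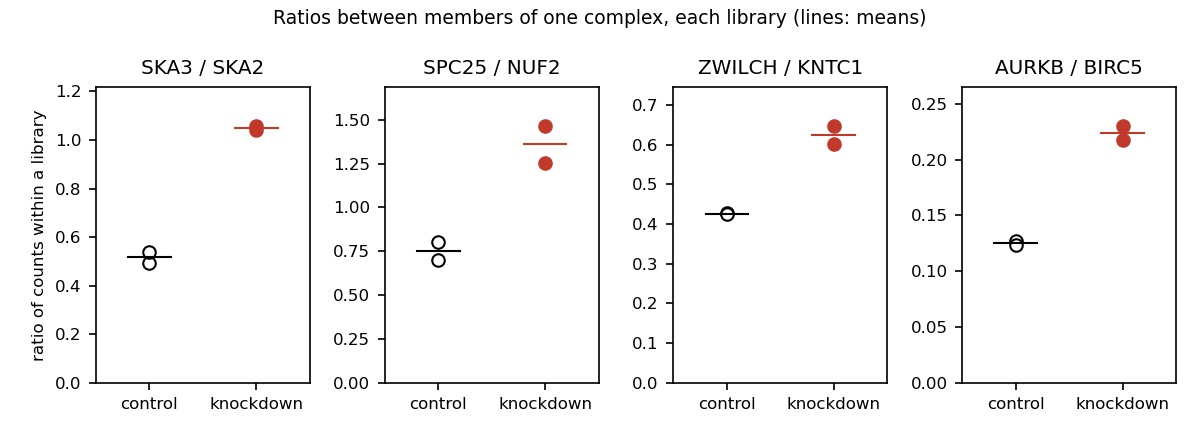
Ratio of counts between paired members of a complex within each library, from a baseline of 0, open circles for controls, red circles for knockdown and lines for group means. The mean SKA3 to SKA2 ratio was 0.516 in controls and 1.05 under knockdown.

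Of the 7 checkpoint genes, CDC20 included, 2 fell, 1 rose and 4 did not pass the test. These counts are near the shares of all tested genes, 24.9% lower and 25.1% higher. BUB1, the kinase that marks kinetochores for the checkpoint and for shugoshin, fell from 123 and 128 to 96.1 and 95.4 CPM (-0.39, SE 0.043, edgeR adjusted p = 2.35e-06). MAD1L1, which encodes MAD1, the kinetochore platform for MAD2, rose from 55.9 and 58.5 to 69.0 and 71.7 CPM (0.30, SE 0.048, adjusted p = 1.04e-04). CDC20, the checkpoint's target, was the member with the highest level per kilobase, 109 CPM in the controls. It was at 194 CPM in both controls and at 171 and 181 under knockdown (-0.14, SE 0.033, adjusted p = 0.00297). The CDC20 adjusted p was 0.0767 without control replicate 1 and 0.0693 without knockdown replicate 1.

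The 4 checkpoint genes that were not called had narrow intervals. MAD2L1, which encodes MAD2, the inhibitor of CDC20, was at 55.5 and 61.2 CPM in controls and 57.7 and 55.5 under knockdown, overlapping groups (95% interval -0.16 to 0.065). Its log2 fold change of -0.045 was 0.024 without control replicate 2. BUB1B, the BUBR1 component of the inhibitory complex, was at 93.8 and 88.6 against 87.3 and 82.9 CPM (-0.099, edgeR adjusted p = 0.121), a value resting partly on fractional counts. TTK, the MPS1 kinase that starts the signal, was at 66.8 and 70.2 against 64.6 and 63.5 CPM (-0.097, adjusted p = 0.110). BUB3, the adaptor of BUB1 and BUBR1, was at 226 and 229 against 242 and 233 CPM (0.064, 95% interval 0.0043 to 0.12, adjusted p = 0.0705). The interval is for the gene alone, without the adjustment over genes. Calls were made for BUB1B (adjusted p = 0.0266) and TTK (0.0216) with scaling by library size, for BUB1B without knockdown replicate 1 (0.0416) and for BUB3 without knockdown replicate 2 (0.0260).

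Of the passenger complex, mitotic kinases and shugoshins, 5 of 8 genes fell, against 24.9% of all tested genes. The other 3 did not pass the test. In the passenger complex, which corrects wrong attachments, BIRC5 (survivin) went from 105 CPM in both controls to 65.4 and 67.1 (-0.66, SE 0.048, edgeR adjusted p = 2.88e-08). INCENP, the scaffold of the complex, fell from 107 CPM in both controls to 88.8 and 90.2 (-0.26, SE 0.044). The kinase of the complex, AURKB, had 224 and 227 counts in controls and 233 and 225 under knockdown, or 13.3 and 13.01 against 15.1 and 14.6 CPM (0.17, 95% interval -0.041 to 0.38, adjusted p = 0.169). CDCA8 (borealin) was at 45.8 and 38.8 against 38.5 and 39.0 CPM (-0.13, adjusted p = 0.133). Its control replicate 2 lay within the knockdown range. Without control replicate 2, and with scaling by library size, CDCA8 was called lower (adjusted p = 0.0215 and 0.0423).

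AURKA, the spindle pole kinase, fell from 54.9 and 60.2 to 43.9 and 43.1 CPM (-0.40, SE 0.052, edgeR adjusted p = 1.25e-05). PLK1, a kinase that acts from mitotic entry to cytokinesis, was at 66.5 and 67.2 CPM in controls and 58.0 and 64.1 under knockdown. Its log2 fold change of -0.13 had an adjusted p of 0.0512, and it was called under several other settings, with 0.0156 without knockdown replicate 2. The shugoshins protect cohesin at centromeres. SGOL2, the older symbol of SGO2, went from 75.3 and 73.4 to 48.0 and 46.2 CPM (-0.66, SE 0.046, adjusted p = 2.19e-08). SGOL1 went from 34.9 and 34.6 to 26.5 and 26.8 CPM (-0.38, SE 0.057, adjusted p = 5.19e-05). The antisense gene SGOL1-AS1 had 56 and 43 counts in controls and 35 and 26 under knockdown and did not pass the test, and without a stated use of strand its reads and those of SGOL1 cannot be told apart.

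Other genes of chromosome segregation gave the surroundings of these changes. Of all tested genes 24.9% were lower and 25.1% higher. Over 68 tested genes of the centromere, the anaphase-promoting complex, cohesin and condensin, 28 were lower and 12 higher. Their median log2 fold change was -0.061. DESeq2 called 16 lower and 8 higher, and without control replicate 1 edgeR called 17 lower and 9 higher. Of 8 condensin genes, which compact mitotic chromosomes, 7 fell and none rose (median -0.24), NCAPG by 0.69 and SMC4 by 0.31 on the log2 scale.

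Of 26 other centromere and kinetochore genes 10 fell and 6 rose (median -0.029), against 24.9% and 25.1% of all tested genes. SPDL1, which recruits dynein to the corona, had 995 and 1146 counts in controls and 618 and 602 under knockdown (-0.66), and NEK2, a centrosomal and kinetochore kinase, fell by 0.64. The microtubule-binding genes CLIP1 (-0.31) and CLASP1 (-0.33) fell. MAPRE1 (0.32), RANGAP1 (0.23), CLASP2 (0.26), CENPV (0.48), BOD1 (0.14) and MIS18A (0.26) rose, and the calls of BOD1 (edgeR adjusted p = 0.0790 without control replicate 2 and 0.0521 without knockdown replicate 1) and MIS18A (0.135 without control replicate 1) depended on single libraries. BOD1 was also lost with library-size scaling (0.0543) and MIS18A in DESeq2 (0.132).

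Of 18 tested genes around the anaphase-promoting complex, which CDC20 activates, 5 fell and 5 rose (median 0.015). Each share lay near that of all tested genes, 24.9% lower and 25.1% higher. The ubiquitin-conjugating enzymes UBE2S (-0.34) and UBE2C (-0.29) and the subunit CDC27 (-0.27) fell, and the subunits ANAPC1 (0.33), ANAPC15 (0.56) and CDC26 (0.28) rose, as did ANAPC13 (0.16) and ANAPC4 (0.18). The calls of CDC26, ANAPC13 and ANAPC4 were lost in DESeq2 (adjusted p = 0.0912, 0.157 and 0.238). With a library left out in edgeR, ANAPC13 was lost without control replicate 1 (0.137) and knockdown replicate 2 (0.118), and ANAPC4 without either control (0.225 and 0.104) and without knockdown replicate 1 (0.339). Library-size scaling gave 0.0521 for ANAPC13 and 0.0838 for ANAPC4. Of 16 cohesin genes, regulators and separase 6 fell and 1 rose, STAG2 by 0.12, and the median was -0.084. PTTG1 (securin, -0.23), SMC1A (-0.14) and ESPL1 (separase, -0.22) were among those that fell, with an edgeR adjusted p for ESPL1 of 0.0829 without control replicate 1 and a DESeq2 value of 0.0615.

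Of 29 further G2 and mitosis genes, UBE2C counted again among them, 25 fell and 1 rose, ECT2 by 0.21, with a median of -0.44 beside -0.27 for the members. TOP2A fell by 0.76, MKI67 by 0.52, KIF4A by 0.93 and HMMR by 0.74 on the log2 scale. Of 25 S phase genes 9 fell and 7 rose, with a median of -0.037. For both lists the shares to set beside are 24.9% lower and 25.1% higher over all tested genes. CDC6 (-0.76), CLSPN (-0.63) and TK1 (-0.55) fell and CCNE1 (0.77), MCM7 (0.32), RFC3 (0.37) and RRM2 (0.28) rose. The other called rises, MCM6, MCM3 and POLD1, were lost in DESeq2 (adjusted p = 0.0686, 0.0629 and 0.165) and each without at least 2 of the libraries left out in turn. The part of cell cycle stage in the members' values was not tested.

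Regulators of mitotic transcription were read from a further list of 13 genes, all tested, of which 8 fell and 1 rose. Over all tested genes 24.9% fell and 25.1% rose. FOXM1, a transcription factor of G2 and mitotic genes, had 1851 and 1875 counts in controls and 957 and 1010 under knockdown (-0.77, SE 0.050, edgeR adjusted p = 8.66e-09). The E2F dimerisation partners TFDP1 (-0.43) and TFDP2 (-0.31) fell, and E2F4 rose by 0.25. All 4 lists of segregation genes, the cell cycle lists and this one were drawn up with earlier results of these data known.

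**Figure D5:**
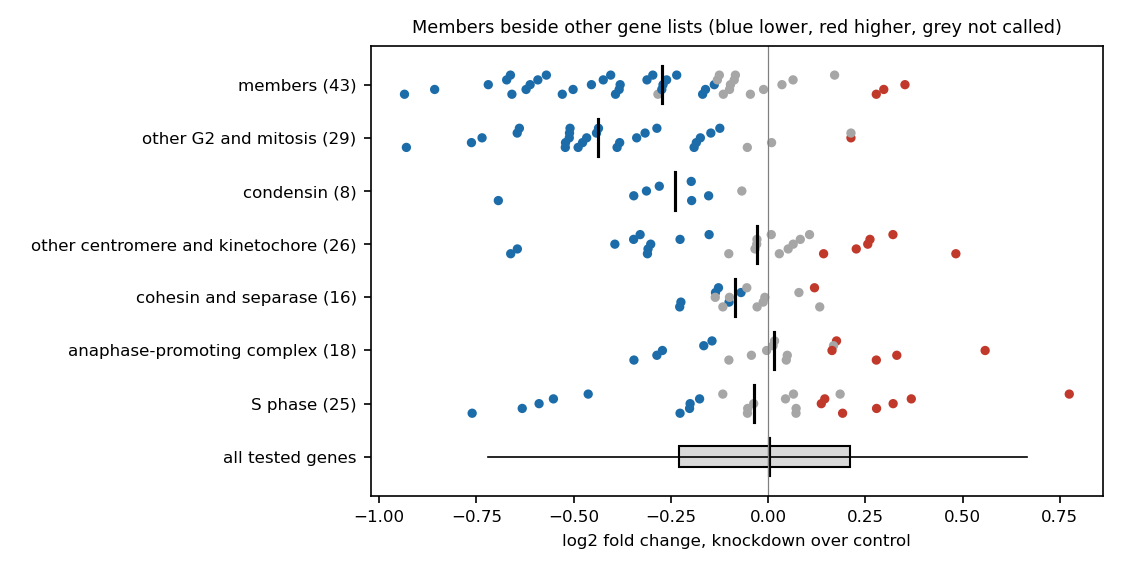
Log2 fold change of each gene (points) in the members and 6 other lists, with the list median (black bar), and for all tested genes the quartiles (box) and the range from the 5th to the 95th percentile (line). Points are blue where called lower, red where called higher and grey where not called; the members' median is -0.27 and that of the other G2 and mitosis genes -0.44.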

How the data were processed

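Gene-level values of 4 libraries, 2 control and 2 knockdown, were used. The deposited values are estimated counts, 1 per gene symbol and without normalisation. Reads were aligned with STAR on GRCh37, per the submitters' processing notes, while the counter, its annotation and its handling of strand were not given in the sources used here. In all, values lay more than 0.01 from a whole number in 591 genes, PMF1 and BUB1B among the members, and were rounded. Columns were matched to samples by name, with 0 columns unused.

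edgeR 4.0.16 (R 4.3.3) fitted group as the only term to genes kept by filterByExpr (minimum count 10) with TMM scaling (factors 0.983 to 1.02) and tested it with the two-sided quasi-likelihood test. P-values were adjusted by Benjamini and Hochberg over all 13915 tested genes with calls at 0.05. The biological coefficient of variation was 2.69%. Intervals are 95%. The procedure was also run on counts simulated with the common dispersion of these same libraries. That cannot show how the calls would hold between separate cultures. A count of 3 corresponds to 0.172 to 0.195 CPM, a value given for scale and used in no test or filter. The reads carry no stated molecular identifiers and may be PCR copies.

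Alternatives were RLE, upper-quartile and library-size scaling, 2 other filters, DESeq2 1.42.0, limma-voom (limma 3.58.1), a block for replicate number, leaving out each library, stricter thresholds, and leaving out fractional genes. All members could be named. In other lists the rule names up to 4 called genes with the smallest adjusted p and those called against the majority, and some of these are given only as counts. Members and lists were chosen with earlier results of these data known. Start windows came from RefSeq (GRCh38.p14) and transcript lengths from GENCODE 29, and 3 members were matched under current symbols.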

Additional observations from a re-analysis of the deposited data

How the results depend on the processing

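The count of members called was 27 lower and 3 higher. Over scaling, filter, test and block it ran from 21 (DESeq2) to 31 (library size) lower, always with 3 higher. With a library left out it was 20 to 27 lower and 3 to 4 higher, the fewest without control replicate 1. At least 2-fold, 0 members were lower and 0 higher, and against a fold of 1.2, 17 were lower and 0 higher. For all tested genes, 277 were lower and 301 higher at least 2-fold, 1305 lower and 1216 higher against a fold of 1.2, and DESeq2 called 2159 lower and 2434 higher. DESeq2 did not call CENPH, CENPK, CENPO, MIS12, PMF1 and SKA1 among the members. With a library left out, 2430 to 3122 were lower and 2607 to 3220 higher. For the other segregation genes, 0 were lower and 0 higher at least 2-fold, 4 lower and 3 higher against a fold of 1.2, DESeq2 called 16 lower and 8 higher, and with a library left out 17 to 25 were lower and 9 to 11 higher. With a library left out the log2 fold change ran from -0.039 to 0.013 for CENPN, -0.22 to 0.056 for SPC25 and -0.11 to 0.024 for MAD2L1, the highest without control replicate 2, and it was -0.0099 for CENPT with library-size scaling, none of them called. Of 686 further values of members, 600 kept their sign and side of the threshold, 68 lost a call, 14 gained one and 4 changed sign. These values include the stricter thresholds on the same fit, which can remove calls but add none. The tally is therefore no measure of stability. Library-size scaling moved the median of all genes from 0.0012 to -0.044, with 4101 genes lower and 2966 higher against 3471 and 3499. The replicate block called 28 members lower and 3 higher, and 3602 lower and 3609 higher over all genes. Numbers shared by libraries correlated at 0.18 in their deviations over all genes, and with 2 numbers this does not show pairing. The cause of these differences was not tested. Depth limits CENPP, CENPM and SPC24 most.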
